A study of Homo sapiens with 24 samples.

Results

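The genes described here are 10 members of the BCL2 family of cell death regulators, MCL1, BCL2L1, BAX, BAK1, BID, BAD, BIK, BBC3, PMAIP1 and BCL2L11, taken by symbol from the 58721 genes of the count table. They were measured in RT112 cells, a bladder cancer line of the luminal papillary (LumP) subtype, and in SCaBER cells, a bladder cancer line of the basal/squamous (Ba/Sq) subtype, both established human cell lines. Each line received 6 siRNA treatments: a control siRNA (siControl, number 2 in the labels), either of a pair of siRNAs against the transcription factor ZBED2 (siZBED2-1, siZBED2-2), 1 siRNA against the luminal transcription factor FOXA1 (siFOXA1, number 1 in the labels), or siFOXA1 together with one of the ZBED2 siRNAs. Each of the 12 groups held 2 libraries of 3′ RNA-seq, 24 in all, in which reads come from the polyadenylated end of a transcript. All cells went through lipid transfection, siControl cells included. No untransfected cells were analysed here, and with 1 siRNA against FOXA1 an effect of FOXA1 loss and an off-target effect of that siRNA cannot be told apart. The study describes the knock-down as short-term, and its question was what FOXA1 and ZBED2 do in luminal and basal cells.

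BCL2 family proteins decide whether the outer mitochondrial membrane is permeabilised, the step that releases cytochrome c and starts the caspases. MCL1 and BCL-XL (the product of BCL2L1) hold the pore-forming effectors BAX and BAK (from BAK1) in check, and the BH3-only proteins BID, BAD, BIK, PUMA (BBC3), NOXA (PMAIP1) and BIM (BCL2L11) relieve that restraint or activate the effectors. BH3-only genes are switched on by stress-responsive transcription factors such as FOXO proteins and the integrated stress response factors, while the effectors are controlled largely at the protein level.

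Library totals ran from 4425404 to 5207195 counts in RT112 and from 4519668 to 6119210 in SCaBER. FOXA1 itself was at 41.7 ± 0.636 CPM (counts scaled by library size, mean ± SD, n = 2 here and below) in RT112 siControl and at 8.15 ± 1.85 with siFOXA1 (log2 fold change −2.36, adjusted p = 5.68e-05, edgeR). In SCaBER, where FOXA1 was low, the siControl libraries held 20 and 28 FOXA1 counts and the siFOXA1 libraries 4 and 6, a difference that was not called (adjusted p = 0.272). ZBED2 fell by 3.97 on the log2 scale with siZBED2-1 in RT112 and by 1.96 in SCaBER, whereas the changes with siZBED2-2 (−1.52 and −0.61) were not called, and with siFOXA1 ZBED2 fell by 2.48 on the log2 scale in RT112. Summed luminal markers ranged from 1370 to 2746 CPM in RT112, where UPK1B alone gave 690 to 1588 CPM, and from 75.1 to 153 CPM in SCaBER. UPK1A, UPK3A and KRT20 were at 0 counts in SCaBER. In RT112 UPK3A and KRT20 were also at a control mean of 0 CPM, with at most 16 and 5 counts in a library. Summed basal/squamous markers ranged from 858 to 1507 CPM in RT112 and from 3871 to 6955 CPM in SCaBER. Of the 9 leukocyte, fibroblast and endothelial markers CD3D and COL3A1 were at 0 in both lines, and the summed level of the list stayed between 5.60 and 59.4 CPM.

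The promoters of 4 genes are printed. PMAIP1, which rose with siFOXA1 in both lines, BBC3, which rose in SCaBER, and BAD, which fell in both, were taken for these changes. BCL2L11 was taken as the only member with a forkhead match. It was not called with siFOXA1 against siControl in either line (edgeR adjusted p = 0.291 and 0.96). With the FOXA1 siRNA on siZBED2-1 in RT112 it was called lower (log2 fold change −1.36, edgeR adjusted p = 0.041), a call lost without any one of its 4 libraries. BCL2L1, called in both lines, had none of the motifs searched and is not printed. Each window holds the 250 bases before the RefSeq start (assembly GRCh38.p14), and the capitals mark matches to a GC box (GGGGCGGGG) or a forkhead motif (TGTTTAC, here on the opposite strand). The BBC3 start lies inside the annotated gene, so its window overlaps the gene's first bases, and it held none of the motifs searched.
PMAIP1, chr18:59899746-59899995, plus strand: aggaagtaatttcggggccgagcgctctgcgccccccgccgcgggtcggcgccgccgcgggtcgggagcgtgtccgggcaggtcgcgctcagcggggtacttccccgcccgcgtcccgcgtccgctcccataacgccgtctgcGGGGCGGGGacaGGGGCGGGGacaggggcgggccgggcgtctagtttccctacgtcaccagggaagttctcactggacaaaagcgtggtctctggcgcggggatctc
BBC3, chr19:47232668-47232917, minus strand: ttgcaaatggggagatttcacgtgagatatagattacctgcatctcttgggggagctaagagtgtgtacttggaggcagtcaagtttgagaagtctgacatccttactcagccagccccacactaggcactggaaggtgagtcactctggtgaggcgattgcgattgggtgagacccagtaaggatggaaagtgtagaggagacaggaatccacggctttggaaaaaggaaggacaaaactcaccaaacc
BAD, chr11:64284705-64284954, minus strand: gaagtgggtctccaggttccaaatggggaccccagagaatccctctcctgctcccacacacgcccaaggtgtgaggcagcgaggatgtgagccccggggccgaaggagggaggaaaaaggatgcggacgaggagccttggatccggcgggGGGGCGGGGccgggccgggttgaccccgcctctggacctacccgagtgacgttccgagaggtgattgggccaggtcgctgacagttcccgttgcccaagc
BCL2L11, chr2:111120664-111120913, plus strand: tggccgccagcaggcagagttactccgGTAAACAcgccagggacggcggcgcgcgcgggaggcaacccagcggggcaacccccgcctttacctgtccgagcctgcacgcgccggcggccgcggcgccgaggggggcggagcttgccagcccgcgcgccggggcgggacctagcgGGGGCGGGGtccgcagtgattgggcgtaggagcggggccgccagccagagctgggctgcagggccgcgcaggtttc
RefSeq windows were found for 8 of the 10 genes, with none for MCL1 and BIK. A GC box stood in 3 of the 8 windows (2 matches in PMAIP1, at 107 to 99 and at 95 to 87 bases before the start, BAD at 100 to 92 and BCL2L11 at 76 to 68) and in 15.1% of all 35116 promoter windows of this length. The forkhead letters stood in the BCL2L11 window at 223 to 217 bases before the start and in 2.98% of all windows. The interferon-stimulated response element, the cyclic AMP response element (TGACGTCA) and the E2F motif (TTTCGCGC) were in 0 of the 8 windows, against 3.02%, 1.65% and 0.439% of all windows. Both strands were searched, and a match is a run of letters, not a bound site. The genes themselves span chr18:59899996-59904305 (PMAIP1), chr19:47220824-47232860 (BBC3), chr11:64269828-64284704 (BAD) and chr2:111120914-111168445 (BCL2L11) in the same assembly, and their counts are reads over exons near the 3′ end. The PMAIP1 window was 72.8% G and C and the BBC3 window 49.2%, beside a median of 58.0% over all windows.

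MCL1 was the most counted member in both lines. It gave 179 and 209 CPM in the RT112 siControl libraries and 402 and 456 CPM in those of SCaBER, and it held 37.8 to 51.1% of the family's counts in RT112 libraries and 44 to 51.6% in SCaBER libraries. Per length (deposited TPM, mean of the siControl libraries), BAD was first in RT112 at 135, ahead of MCL1 at 97.0 and BID at 47.3, and in SCaBER MCL1 was first at 253, ahead of PMAIP1 at 168, BAD at 141 and BIK at 115. In 3′ libraries reads do not grow with transcript length, so dividing by length favours short transcripts. At the other end, BBC3 was lowest in RT112 on both scales (3.61 CPM and 2.49 TPM). In SCaBER BAX was lowest by CPM (6.12), and BCL2L11, at 11.6 CPM, was lowest only by TPM (4.52). BAX gave only 16 to 49 counts in any RT112 library and 18 to 63 in any SCaBER library. The long and short isoforms of MCL1 and BCL2L1, which act in opposite directions, are summed in these gene counts.

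**Figure D1:**
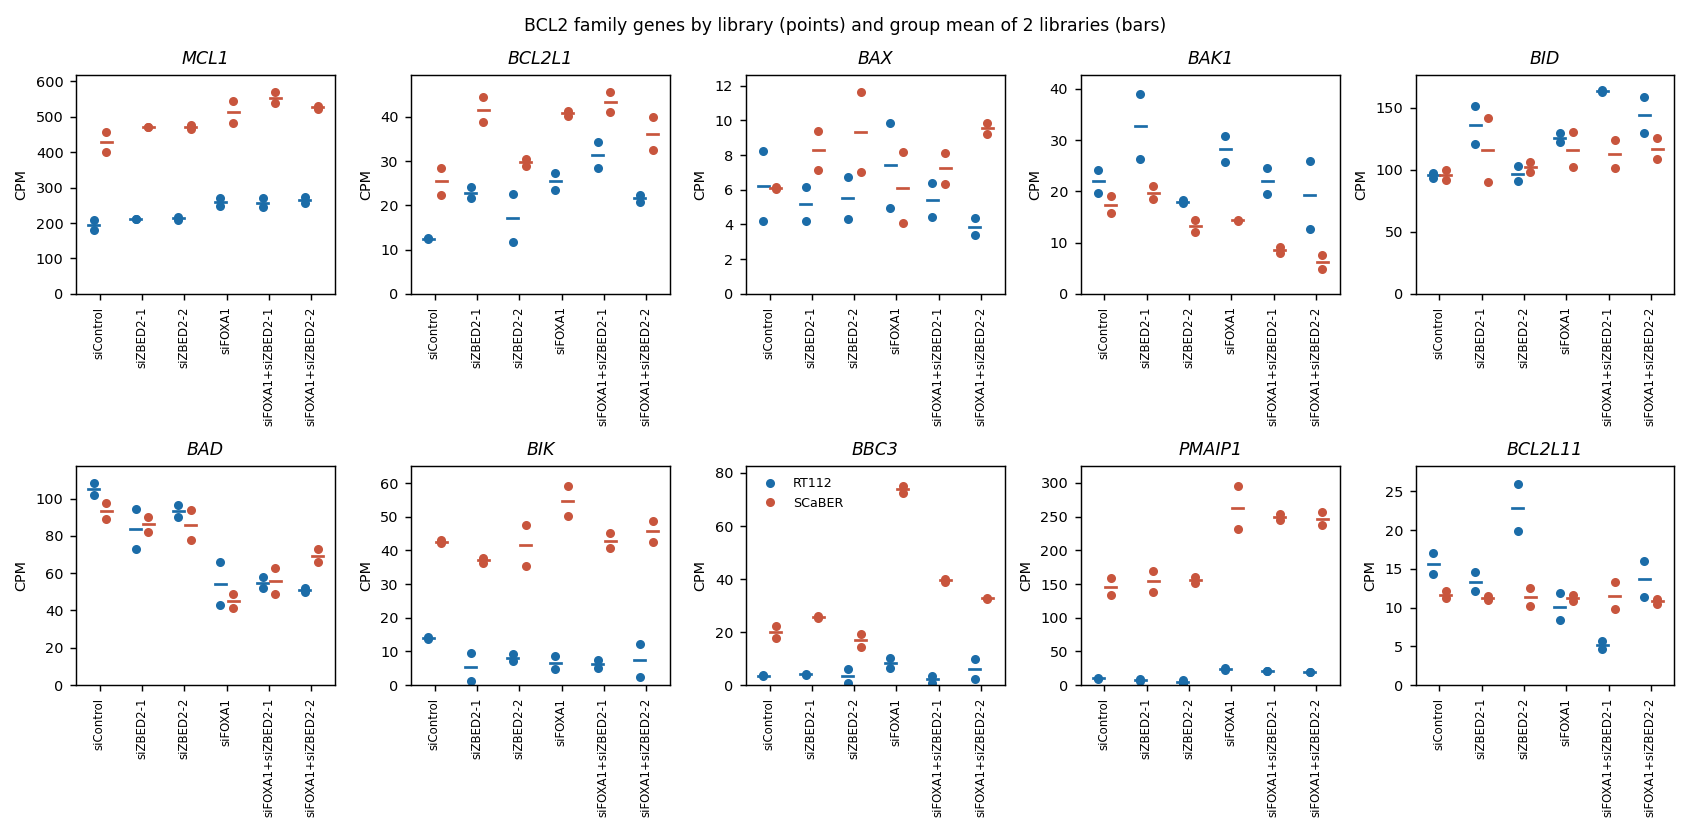
CPM (vertical axes, linear from 0, scaled within each line) of the 10 genes in the 24 libraries, by siRNA treatment (horizontal axes), with points for libraries and bars for the mean of 2. RT112 is blue and SCaBER is red: PMAIP1, BBC3, BIK and MCL1 lie higher in SCaBER in all treatments, and BAD is lower in both lines in the treatments with siFOXA1.

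The lines differed at baseline on both sides of the family. Compared with SCaBER siControl, 5 of the 10 genes were lower in RT112 siControl and 0 were higher, where 17.2% and 16.4% of all 14823 genes were called lower and higher, and a bulk library cannot tell fewer cells that use a gene from less RNA per cell. PMAIP1, whose product NOXA binds MCL1 and promotes its degradation, differed most: the 2 RT112 siControl libraries gave 9.67 and 10.1 CPM and the 2 SCaBER siControl libraries 134 and 159. The groups were far apart, with a log2 difference of −3.87 (SE 0.25, adjusted p = 1.5e-14). BBC3, encoding the BH3-only protein PUMA, gave 3.49 and 3.74 CPM in RT112 and 17.8 and 22.4 CPM in SCaBER, with a log2 difference of −2.45 (SE 0.53, adjusted p = 0.000449). BIK, an endoplasmic reticulum BH3-only protein, gave 13.6 and 14.3 CPM in RT112 and 42.1 and 43.1 CPM in SCaBER (log2 difference −1.59, adjusted p = 0.00553).

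The pair of survival genes was also lower in RT112, MCL1 by a log2 difference of −1.13 (SE 0.12, adjusted p = 2.96e-09) and BCL2L1 by −1.01 (SE 0.29, adjusted p = 0.00666). BCL2L1 gave 12.3 and 12.7 CPM in RT112 and 22.4 and 28.5 CPM in SCaBER, and its call was lost without SCaBER siControl replicate 1 (−0.82, adjusted p = 0.103) or RT112 siControl replicate 1 (−0.98, adjusted p = 0.0553). The other 5 genes had log2 differences between 0.01 for BID and 0.45 for BCL2L11, and none was called. BID gave 93.8 and 97.6 CPM in RT112 and 92.0 and 99.9 CPM in SCaBER.

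With siFOXA1, survival genes and BH3-only genes were among the members called. Against siControl, 3 of the 10 genes rose and 1 fell in RT112, where 11.3% of all 13264 genes tested rose and 11.9% fell, and 3 rose and 1 fell in SCaBER, where 8.71% of all 13129 genes rose and 9.12% fell. BCL2L1, PMAIP1 and BAD were called in both lines, in the same direction, MCL1 was called in RT112 and BBC3 in SCaBER. The median log2 fold change of the 10 genes was 0.38 in RT112 and 0.27 in SCaBER, against −0.01 and −0.02 over all genes. FOXA1 siRNA was also given on top of each ZBED2 siRNA, and these comparisons (siFOXA1+siZBED2-1 against siZBED2-1, siFOXA1+siZBED2-2 against siZBED2-2) share no library with the first or with each other. They called 2 and 3 of the 10 genes in RT112, beside 10.3% and 8.78% of all genes, and 2 and 2 in SCaBER, beside 5.78% and 3.03%. The share of mitochondrial transcripts was 12.2 to 17.8% in RT112 siControl and 21.4 to 22.7% with siFOXA1, 16 to 16.9% in siZBED2-1 and 19.8 to 20.6% in siFOXA1+siZBED2-1, and 8.22 to 16.4% in siZBED2-2 and 18.6 to 19.4% in siFOXA1+siZBED2-2. In SCaBER the same pairs of groups gave 9.73 to 10.7% and 12.5 to 12.9%, 10.2 to 10.9% and 11 to 11.8%, and 9.55 to 12% and 9.29 to 11.5%, so the last pair overlapped. The lowest share, 8.22%, was that of RT112 siZBED2-2 replicate 2, and the 2 libraries of that group differed most among replicates (chi-square per gene 22.1). Among markers of other cell types COL1A1 rose in RT112 by 3.11 on the log2 scale, from a control mean of 4.73 CPM, PECAM1 fell there from a control mean of 3.77 CPM, and 0 of the 2 tested in SCaBER were called. Their part in the values below was not tested.

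**Figure D2:**
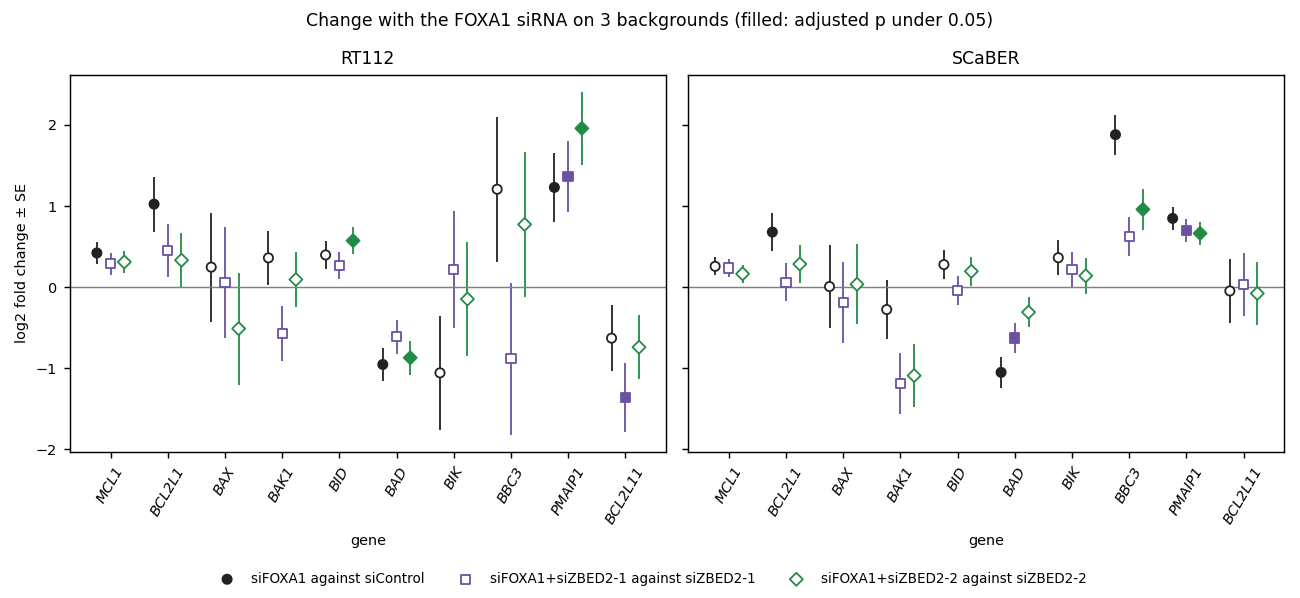
Log2 fold change ± SE (vertical axis) of the 10 genes (horizontal axis) with the FOXA1 siRNA in RT112 (left) and SCaBER (right), against siControl (circles), on siZBED2-1 (squares) and on siZBED2-2 (diamonds), filled where adjusted p was under 0.05. PMAIP1 lies above 0 and is filled in all 6 comparisons, and BAD lies below 0 in all 6 and is filled in 4.

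Within the experiment batches of the labels, replicates 1 and 2, the siFOXA1 minus siControl log2 differences in RT112 were 1.16 and 1.28 for PMAIP1, −0.72 and −1.25 for BAD, 0.93 and 1.10 for BCL2L1 and 0.37 and 0.48 for MCL1. In SCaBER they were 0.79 and 0.89 for PMAIP1, −1.24 and −0.87 for BAD, 0.54 and 0.84 for BCL2L1 and 2.07 and 1.69 for BBC3. Each of these genes moved the same way in both batches. So did every other member except BAX (1.22 and −0.73 in RT112, 0.43 and −0.59 in SCaBER), whether called or not. An uncalled example is BAK1, with 0.64 and 0.09 in RT112 and −0.40 and −0.14 in SCaBER. Agreement of sign thus does not set the called genes apart, and its share over all genes was not computed.

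PMAIP1 was the one member called in all 6 comparisons with FOXA1 siRNA. In RT112 it went from 9.67 and 10.1 CPM in siControl to 21.7 and 24.7 CPM in siFOXA1, from 6.74 and 9.73 CPM in siZBED2-1 to 20.6 and 21.6 CPM in siFOXA1+siZBED2-1, and from 2.32 and 7.47 CPM in siZBED2-2 to 19.0 and 19.5 CPM in siFOXA1+siZBED2-2. No library without the FOXA1 siRNA reached the level of any library with it. The log2 fold changes were 1.23 (SE 0.43, adjusted p = 0.0391), 1.36 (SE 0.44, adjusted p = 0.0464) and 1.96 (SE 0.45, adjusted p = 0.00658). These RT112 calls rest on few libraries. The first 2 were lost without any one of the 4 libraries compared (adjusted p up to 0.155 and 0.278), and the third was lost without siZBED2-2 replicate 1, a library with 12 PMAIP1 counts (1.36, adjusted p = 0.111). Without siZBED2-2 replicate 2, the library with the low mitochondrial share, the third was 3.04 (adjusted p = 0.00116). All 3 were lost under limma on log2(TPM + 1), with 0.86, 1.08 and 1.63 (adjusted p = 0.222, 0.214 and 0.066).

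In SCaBER, where PMAIP1 was already high, it went from 134 and 159 CPM in siControl to 231 and 295 CPM in siFOXA1, from 138 and 169 CPM to 245 and 253 CPM on siZBED2-1, and from 152 and 160.4 CPM to 237 and 257 CPM on siZBED2-2. Again every library with the FOXA1 siRNA lay above every library without it. The log2 fold changes were 0.85 (SE 0.14, adjusted p = 4.43e-05), 0.70 (SE 0.14, adjusted p = 0.00226) and 0.66 (SE 0.14, adjusted p = 0.00519). The first held without each library in turn (adjusted p up to 0.00337). The second was lost without siZBED2-1 replicate 1 (0.54, adjusted p = 0.0984), and the third without siZBED2-2 replicate 2 (0.61, adjusted p = 0.0711) or siFOXA1+siZBED2-2 replicate 2 (0.60, adjusted p = 0.0631), and both were lost under limma (adjusted p = 0.0702 and 0.0874).

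BAD, a BH3-only protein that binds BCL-XL and is silenced by survival kinases, went the other way. In RT112 it gave 102 and 109 CPM in siControl and 42.8 and 65.8 CPM in siFOXA1, 72.8 and 94.6 CPM in siZBED2-1 and 52.0 and 57.8 CPM in siFOXA1+siZBED2-1, and 90.2 and 96.7 CPM in siZBED2-2 and 50.0 and 52.2 CPM in siFOXA1+siZBED2-2. Every library with the FOXA1 siRNA lay below every library without it. The log2 fold changes were −0.95 (SE 0.21, adjusted p = 0.00136), −0.61 (SE 0.21, adjusted p = 0.0631) and −0.87 (SE 0.21, adjusted p = 0.00904). With replicate number as a block the second was called too. The first was lost without siFOXA1 replicate 2 (−0.68, adjusted p = 0.0593) and the third without siFOXA1+siZBED2-2 replicate 2 (−0.84, adjusted p = 0.0696), and the third held without siZBED2-2 replicate 2 (−0.92, adjusted p = 0.0237).

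In SCaBER BAD gave 89.0 and 97.6 CPM in siControl and 41.4 and 48.8 CPM in siFOXA1, and its log2 fold change, −1.05 (SE 0.19, adjusted p = 8.36e-05), held without each library in turn. The fold changes on the ZBED2 siRNAs were closer to 0, and the interaction of siFOXA1 and siZBED2 for BAD was not called (0.58, SE 0.23, adjusted p = 0.212). On siZBED2-1 it gave 82.0 and 90.2 CPM without and 48.6 and 63.0 CPM with the FOXA1 siRNA (−0.63, SE 0.19, adjusted p = 0.0377), a call lost without siZBED2-1 replicate 1 (−0.57, adjusted p = 0.221), siZBED2-1 replicate 2 (−0.71, adjusted p = 0.0989) or siFOXA1+siZBED2-1 replicate 1 (−0.46, adjusted p = 0.407) and under limma (−0.70, adjusted p = 0.0606). On siZBED2-2 it gave 77.8 and 94.0 CPM without and 65.7 and 72.9 CPM with it, and the log2 fold change of −0.31 was not called (adjusted p = 0.451). The reads of BAD cannot be told with certainty from those of GPR137, a gene that overlaps it, since the strand setting of the counting was automatic, and the same holds for BCL2L1 and its antisense gene BCL2L1-AS1.

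BBC3 showed the largest change of a member in SCaBER. Its libraries gave 17.8 and 22.4 CPM in siControl (94 and 112 counts) and 72.6 and 75.0 CPM in siFOXA1 (320 and 368 counts). The groups did not approach each other, and the log2 fold change of 1.88 (SE 0.25, adjusted p = 5.5e-07) held without each library in turn, between 1.72 and 2.06. In RT112 BBC3 stood on 17 and 19 counts in siControl and 33 and 47 in siFOXA1. The higher level, by 1.21 on the log2 scale, was not called (SE 0.90, adjusted p = 0.368). RT112 minus SCaBER, this response differed by −0.68 (SE 0.73, adjusted p = 0.759), so the counts of RT112 do not allow a statement that the lines differ.

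Of the survival genes, BCL2L1 rose in both lines with siFOXA1 and MCL1 rose in RT112. BCL2L1 gave 12.3 and 12.7 CPM in RT112 siControl and 23.5 and 27.3 CPM in siFOXA1 (log2 fold change 1.02, SE 0.34, adjusted p = 0.0293), and 22.4 and 28.5 CPM in SCaBER siControl and 40.1 and 41.4 CPM in siFOXA1 (0.68, SE 0.24, adjusted p = 0.0446). The groups did not overlap in either line. The RT112 call was lost without siControl replicate 1, siControl replicate 2 or siFOXA1 replicate 2 (adjusted p up to 0.148) and under limma (0.65, adjusted p = 0.0999). The SCaBER call was lost without any one of the 4 libraries (adjusted p up to 0.343), with no filter on low counts (adjusted p = 0.0829), under limma (adjusted p = 0.0715) and with only the groups compared (adjusted p = 0.0813). On the ZBED2 siRNAs BCL2L1 had log2 fold changes of 0.46 and 0.33 in RT112 and 0.06 and 0.28 in SCaBER, and 0 of these 4 were called.

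MCL1, a short-lived protein that binds NOXA and BIM, gave 179 and 209 CPM in RT112 siControl and 249 and 270.0 CPM in siFOXA1. The groups were separate, and the log2 fold change was 0.42 (SE 0.14, adjusted p = 0.0283). The call was lost without siControl replicate 2 (0.31, adjusted p = 0.315), siFOXA1 replicate 1 (0.36, adjusted p = 0.155) or siFOXA1 replicate 2 (0.48, adjusted p = 0.0617), and on the TPM scale, on which the median gene was lower by 0.26, the value was 0.12 (adjusted p = 0.723). On the ZBED2 siRNAs in RT112 MCL1 had log2 fold changes of 0.29 and 0.31 with the FOXA1 siRNA, neither called (adjusted p = 0.209 and 0.177). In SCaBER it gave 402 and 456 CPM in siControl and 481 and 544 CPM in siFOXA1, and its 3 log2 fold changes, 0.26, 0.24 and 0.16, were not called (adjusted p = 0.118, 0.258 and 0.535). In each of the 6 comparisons the libraries with the FOXA1 siRNA lay above those without it. Groups of 2 libraries were also separate in all 3 such comparisons for BAK1 in SCaBER, where 0 were called. The share of all genes with separate groups was not computed, so this separation carries no test.

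The effectors were called in 0 of the 16 comparisons within the lines. BAX, which moves from the cytosol to mitochondria, had 19 and 45 counts in RT112 siControl and 23 and 49 in siFOXA1, and 31 and 32 counts in SCaBER siControl and 40 and 18 in siFOXA1. These groups overlapped, and the sign of the log2 fold changes (0.25 and 0.01) differed between fits. BAK1, which resides on mitochondria, gave 15.8 and 19.1 CPM in SCaBER siControl and 14.3 and 14.5 CPM in siFOXA1. It was lower where both siRNAs were present: 18.5 and 21.0 CPM in siZBED2-1 against 8.06 and 9.21 CPM in siFOXA1+siZBED2-1 (log2 fold change −1.19, SE 0.37, adjusted p = 0.0526), and 12.0 and 14.4 CPM in siZBED2-2 against 4.84 and 7.54 CPM in siFOXA1+siZBED2-2 (−1.09, SE 0.39, adjusted p = 0.13). The first of these was called with replicate number as a block, with DESeq2 and with limma. In RT112 BAK1 had log2 fold changes of 0.36, −0.57 and 0.09. Its processed pseudogenes took 4 counts (BAK1P1) and 0 counts (BAK1P2) over all libraries, beside 2220 of BAK1.

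Of the remaining BH3-only genes, BID and BCL2L11 were each called in 1 comparison within the lines and BIK in 0. BID, which caspase 8 cuts to its active form, gave 90.9 and 103 CPM in RT112 siZBED2-2 and 129.9 and 159 CPM in siFOXA1+siZBED2-2 (log2 fold change 0.57, SE 0.17, adjusted p = 0.0307). The call was lost without siZBED2-2 replicate 1 (0.66, adjusted p = 0.0559), siZBED2-2 replicate 2 (0.49, adjusted p = 0.221) or siFOXA1+siZBED2-2 replicate 1 (0.42, adjusted p = 0.294), under limma (0.25, adjusted p = 0.493) and with only the groups compared (0.57, adjusted p = 0.056). Against siControl the log2 fold change of BID with siFOXA1 was 0.40 in RT112 and 0.28 in SCaBER, neither called (adjusted p = 0.0898 and 0.336).

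BCL2L11, whose product BIM binds all survival members of the family, gave 12.1 and 14.6 CPM in RT112 siZBED2-1 and 4.67 and 5.66 CPM in siFOXA1+siZBED2-1. The log2 fold change was −1.36 (SE 0.43, adjusted p = 0.041), and it was lost without any one of the 4 libraries (adjusted p up to 0.225), with no filter on low counts (adjusted p = 0.0605), under limma (adjusted p = 0.127) and with only the groups compared (adjusted p = 0.0977). The other RT112 values were −0.63 against siControl and −0.74 on siZBED2-2, neither called. In SCaBER BCL2L11 stayed between 48 and 68 counts in all 12 libraries, with log2 fold changes from −0.08 to 0.03. BIK had log2 fold changes of −1.06 in RT112 (62 and 78 counts in siControl, 22 and 43 in siFOXA1, adjusted p = 0.306) and 0.36 in SCaBER (adjusted p = 0.283). The difference of these responses, −1.42 (SE 0.65, unadjusted p = 0.0354, adjusted p = 0.279), was not called. With siZBED2-1 in RT112 BIK had a log2 fold change of −1.38 against siControl (SE 0.71, adjusted p = 0.274), also not called.

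Over the 10 genes the difference of the siFOXA1 response between the lines was called for 0 by edgeR, DESeq2 and limma, with 1 at an unadjusted p under 0.05 in edgeR (BIK), beside 2.58% of all genes called.

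With the ZBED2 siRNAs alone edgeR called 0 members, which at the shares of all genes given here does not set the 10 genes apart. Against siControl, edgeR called 0 of 10 with siZBED2-1 in RT112 (2 at an unadjusted p under 0.05, beside 8.8% of all genes called), 0 with siZBED2-2 in RT112 (1 unadjusted, 0.166% of all genes), 0 with siZBED2-1 in SCaBER (1 unadjusted, 4.65%) and 0 with siZBED2-2 in SCaBER (0 unadjusted, 0.625%). BCL2L1 was the member with an unadjusted p under 0.05 in both lines with siZBED2-1. It gave 21.6 and 24.1 CPM in RT112, against 12.3 and 12.7 CPM in siControl (log2 fold change 0.87, SE 0.34, adjusted p = 0.122), and 38.7 and 44.4 CPM in SCaBER, against 22.4 and 28.5 CPM (0.71, SE 0.24, adjusted p = 0.0918). The groups did not overlap, which carries no test with 2 libraries each, and DESeq2 called the SCaBER value. BID gave 121 and 152 CPM with siZBED2-1 in RT112, against 93.8 and 97.6 CPM in siControl (0.51, SE 0.17, adjusted p = 0.0563), and it was called by DESeq2 and with replicate number as a block, which gave 1 called member in place of 0. With siZBED2-2 the log2 fold changes of BCL2L1 were 0.46 and 0.22. Since both ZBED2 comparisons share the siControl libraries, the values are given side by side.

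With a ZBED2 siRNA added to siFOXA1, edgeR called 1 member in SCaBER and 0 in RT112. In RT112, 2 were at an unadjusted p under 0.05 with siZBED2-1 and 0 with siZBED2-2. DESeq2 and limma called 0 there, and edgeR called 2.55% and 1.25% of all genes. In RT112 ZBED2 itself was already at 3.47 CPM in siFOXA1, and at 1.66 and 1.74 CPM with siZBED2-1 and siZBED2-2 added, a further fall that was not called. In SCaBER it was at 19.7 CPM in siFOXA1 and at 2.69 and 10.9 CPM with them added. The RT112 interaction uses the same groups. The effect of an added ZBED2 siRNA was not compared between the lines by a test. The part of these ZBED2 levels in the calls was not tested. The SCaBER member was BBC3. From 72.6 and 75.0 CPM in siFOXA1 it was at 39.1 and 39.9 CPM in siFOXA1+siZBED2-1 (log2 fold change −0.90, SE 0.23, adjusted p = 0.0254) and at 32.7 and 32.9 CPM in siFOXA1+siZBED2-2 (−1.17, SE 0.24, adjusted p = 0.00212), where 2.73% and 3.66% of all genes were called. These comparisons share the siFOXA1 libraries. The first call was lost without any one of its 4 libraries (adjusted p up to 0.213), and the second held without each (up to 0.0336). BAD, lowered by siFOXA1 in SCaBER, stood at 65.7 and 72.9 CPM in siFOXA1+siZBED2-2 and 41.4 and 48.8 CPM in siFOXA1 (0.62, SE 0.19, adjusted p = 0.0611), and it was called under DESeq2 and with replicate number as a block, which gave 2 called members in place of 1. DESeq2 also called BAK1 in this comparison, where edgeR gave −1.22 (SE 0.39, adjusted p = 0.0792).

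Without the FOXA1 siRNA BBC3 in SCaBER was at 25.2 and 26.1 CPM in siZBED2-1, above the siControl values of 17.8 and 22.4 CPM. This difference was not called (log2 fold change 0.35, edgeR adjusted p = 0.547). In siZBED2-2 it was at 14.4 and 19.4 CPM (−0.25, adjusted p = 0.909), also not called. With the FOXA1 siRNA the log2 fold change of BBC3 was 0.62 on siZBED2-1, not called (SE 0.24, adjusted p = 0.143), and 0.96 on siZBED2-2 (SE 0.25, adjusted p = 0.0241), beside 1.88 on siControl. The second was lost without siZBED2-2 replicate 2 (0.75, adjusted p = 0.296), siFOXA1+siZBED2-2 replicate 1 (0.96, adjusted p = 0.11) or siFOXA1+siZBED2-2 replicate 2 (0.95, adjusted p = 0.126) and with only the groups compared (0.95, adjusted p = 0.0897). The interaction, the FOXA1 siRNA effect averaged over the ZBED2 siRNA backgrounds minus that on siControl, was −1.09 for BBC3 (SE 0.30, adjusted p = 0.0426). BBC3 was the 1 member called for interaction in SCaBER, where 2.29% of all genes were called, and 0 members were called in RT112 (0 unadjusted, 0 by DESeq2 and limma), where 0.611% of all genes were called. The interaction call was lost without any one of 11 of the 12 libraries (value between −1.28 and −0.94, adjusted p up to 0.229) and under limma (−0.97, adjusted p = 0.0772), and it held without siZBED2-2 replicate 2.

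**Figure D3:**
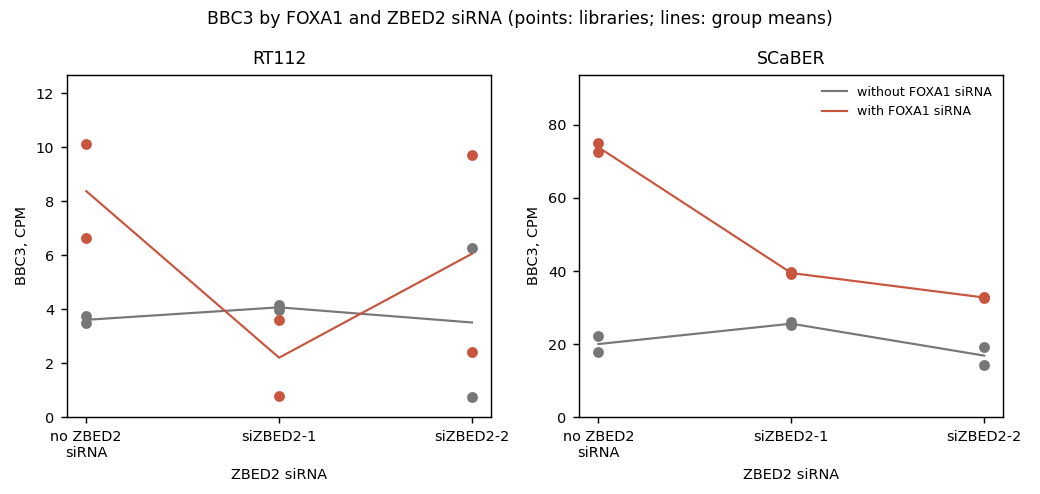
BBC3 in CPM (vertical axes, linear from 0, a different range per line) by ZBED2 siRNA (horizontal axes) without (grey) and with (red) the FOXA1 siRNA, with points for libraries and lines through the means of 2 libraries. In SCaBER the red means run from 73.8 to 39.5 and 32.8 CPM and the grey ones from 20.1 to 25.6 and 16.9, and in RT112 the points lie between 0.772 and 10.1 CPM.

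In RT112 BBC3 was too sparse for a statement on this pattern. Its libraries held 4 to 47 counts, and single libraries differed within a group, as with 4 and 36 counts in siZBED2-2. The interaction was −1.26 (SE 1.10, edgeR adjusted p = 0.714), of the same sign as in SCaBER. Added to siFOXA1, siZBED2-1 gave −1.91 (SE 0.93, adjusted p = 0.347) and siZBED2-2 −0.46 (SE 0.88, adjusted p = 0.875), neither called. The counts of RT112 thus do not allow a statement that the lines differ here.

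The rest of the death pathway had genes called in both directions with siFOXA1. Over all genes, 11.3% rose and 11.9% fell in RT112 (median −0.01), and 8.71% rose and 9.12% fell in SCaBER (median −0.02). The lists here and below were not tested as sets, and at these shares a count of 1 does not set a list apart. Of 9 other BCL2 family genes tested in RT112, 2 rose and 0 fell, the mitochondrial receptor BCL2L13 by 1.11 (adjusted p = 5.87e-05) and BNIP2 by 0.58 (adjusted p = 0.0333), with a list median of 0.23. Of 11 tested in SCaBER, 0 rose and 1 fell, the mitophagy receptor BNIP3 (−0.89, adjusted p = 0.0182), with a median of 0.22. Downstream, the apoptosome and caspase list had 0 higher and 3 lower of 15 in RT112 and 1 higher and 3 lower of 15 in SCaBER, with medians of −0.02 and −0.13. Cytochrome c (CYCS) fell by 1.12 in RT112 and 0.94 in SCaBER on the log2 scale (adjusted p = 1.95e-05 and 1.29e-05), and the mitochondrial channel gene VDAC3 by 1.28 and 1.06 (adjusted p = 0.000552 and 0.000103). The nuclease gene ENDOG fell in RT112 (−1.10, adjusted p = 0.0161) and CASP2 in SCaBER (−0.76, adjusted p = 0.00282), where CASP8, the initiator caspase that cuts BID, rose (0.81, adjusted p = 0.00862).

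The inhibitors of apoptosis had 3 higher and 1 lower of 6 in RT112 and 0 higher and 1 lower of 6 in SCaBER, with medians of 0.65 and 0.26. BIRC3 (3.13, adjusted p = 8.2e-05), BIRC2 (0.67, adjusted p = 0.0103) and BIRC6 (0.69, adjusted p = 0.048) rose in RT112, while survivin (BIRC5), which also acts in mitosis, fell in both lines (−1.57, adjusted p = 3.79e-05, and −1.21, adjusted p = 1.75e-06). Among death receptors and ligands 1 of 9 rose in RT112 and 3 of 10 in SCaBER, and 0 fell in either line (medians −0.04 and 0.27). TNFRSF10B, a TRAIL receptor, rose in both lines (1.24, adjusted p = 0.0033, and 0.98, adjusted p = 0.00228), and TNFRSF10A (1.17, adjusted p = 2.31e-05) and the ligand TNFSF10 (1.48, adjusted p = 3.65e-07) rose in SCaBER.

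The transcription factors that act on BH3-only genes had 1 higher and 3 lower of 12 in RT112 and 1 higher and 4 lower of 12 in SCaBER, with medians of −0.12 and −0.05. FOXO1, a forkhead activator of BCL2L11 and BBC3, fell in both lines (−2.25, adjusted p = 0.00057, and −1.37, adjusted p = 0.00202), and JUN, a stress-responsive factor, rose in both (0.60, adjusted p = 0.00217, and 1.02, adjusted p = 1.6e-05). E2F1, a cell cycle factor, fell in SCaBER (−1.03, adjusted p = 0.00101).

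Ligases, deubiquitinases and kinases that act on MCL1 or BH3-only proteins had 1 higher and 3 lower of 7 in RT112 and 0 higher and 1 lower of 7 in SCaBER, with medians of −0.76 and −0.05. AKT1, a kinase that phosphorylates BAD, fell in SCaBER (−1.15, adjusted p = 0.000754). PIM1, another BAD kinase, fell in RT112 (−1.33, adjusted p = 2.88e-05), and HUWE1, a ligase of MCL1, rose there (0.69, adjusted p = 0.0136). Transcript counts say nothing of the activity of these proteins.

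**Figure D4:**
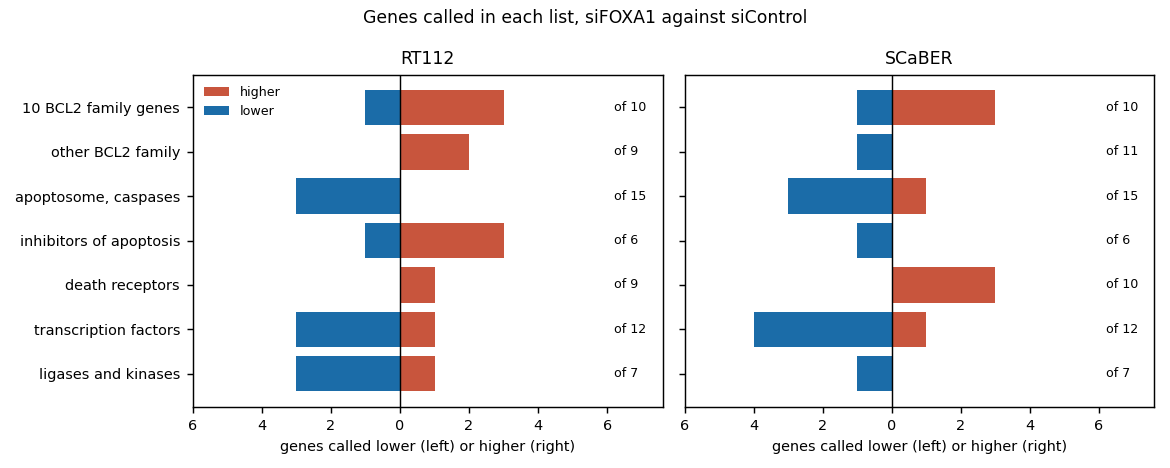
Number of genes called lower (bars to the left) and higher (bars to the right) with siFOXA1 against siControl in RT112 and SCaBER, for the 10 genes and 6 lists of the death pathway, with the number tested at the right. The 10 genes had 3 higher and 1 lower in both lines, and the transcription factors had 4 lower in SCaBER. Of all genes, 11.3% were called higher and 11.9% lower in RT112, and 8.71% and 9.12% in SCaBER.

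For the 3 members called most often over the 16 comparisons within the lines (PMAIP1 in 6, BBC3 in 5, BAD in 4), the genes with the most similar pattern were found by the mean of the Pearson r in RT112 and SCaBER over 12 libraries each, among 11762 genes tested in both. They were BLZF1 (0.908), OAS2 (0.903) and UQCRB (0.901) for PMAIP1, SNW1 (0.803), YIPF6 (0.788) and GBP2 (0.778) for BBC3, and MKI67 (0.955), SET (0.932) and RBMX (0.932) for BAD. MKI67 encodes the proliferation antigen Ki-67, and OAS2 and GBP2 are interferon-induced. Within the family the pair with the largest absolute r in SCaBER was BAD and BBC3 (−0.887), which had −0.217 in RT112. In RT112 it was BAD and MCL1 (−0.845), which had −0.627 in SCaBER. The 12 libraries of a line share their treatments, so these values describe the set of treatments and carry no test.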

How the data were processed

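3′ RNA-seq (QuantSeq FWD kit) libraries of RT112 and SCaBER, 24 in all, gave the expression values. According to the submitters' processing notes and the methods, the authors ran raw-qc 2.1.0, TrimGalore 0.6.2 and an rnaseq pipeline 3.1.8, aligned the reads with STAR 2.6.1a to hg38 and deposited STAR counts per gene on GENCODE 29. The methods text names hg19 for the same step, and hg38 from the labels was taken. The authors also deposited TPM, made with a tool not given in the sources used here. Raw counts give no more precision than their number: 3 counts corresponded to 0.576 to 0.678 CPM in RT112 libraries and 0.49 to 0.664 CPM in SCaBER libraries. Counting intervals were not used, since the kit's reads without molecular identifiers are not independent molecules.

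Groups and replicate numbers came from the labels. Counts were tested with edgeR 4.0.16 (R 4.3.3) by the quasi-likelihood test after TMM scaling and filterByExpr (minimum count 10, minimum total 15), with 12 libraries of a line in 1 fit (13264 genes in RT112, 13129 in SCaBER) and 24 libraries (14823 genes) for comparisons between lines. P-values were adjusted by the Benjamini-Hochberg method over all genes tested, and a gene was called at an adjusted p under 0.05. All 10 genes passed the filter in both lines. CPM used the TMM scaling of each line, and the SE is the log2 fold change divided by the root of F. Nothing in the labels says that the 2 replicates of a group were separate cultures, so p-values measure the spread between these libraries, pooled over the groups of a line. Where groups are said not to overlap, the share of all genes for which this holds was not computed, and the statement describes the values only. In each line the common biological coefficient of variation was 25.8% (RT112) or 21.6% (SCaBER), and replicates differed by more than counting noise (chi-square per gene 6.07 to 22.1).

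On simulated data for siFOXA1 against siControl in RT112 (13264 genes), 100 genes were changed 2-fold and 100 changed 4-fold, with the common dispersion for every gene. There 11% of 2-fold and 77% of 4-fold changes were recovered, with 3 false calls. The data had many more called genes (11.3% rose and 11.9% fell), which loosens the adjusted p threshold, so these rates need not hold for them. A change that was not called, also one of 2-fold or more, is not shown to be absent. Replicate numbers stand under an experiment batch field of the labels, and libraries with equal numbers were taken as pairs. Deviations of same-numbered libraries had a mean r of 0.0283 in RT112 and 0.0207 in SCaBER over 15 pairs of groups each, 0 of them over 0.1. The main fit had no block, since the study's methods name none. Alternatives were RLE size factors, no filter, DESeq2 1.42.0, limma 3.58.1 on log2(TPM + 1), a replicate block, only the groups compared and leaving out each replicate in turn.

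The 10 genes and the pathway and marker lists were chosen with earlier results of these data known. Beyond the 10 genes and the check of FOXA1 and ZBED2, genes were named from a list when called, at most 3 in each direction by smallest p. Promoter windows and gene positions are RefSeq, GRCh38.p14. Protein and siRNA sequences were not used here, and some genes of the lists are not reported here and were left out of their counts.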

Additional observations from a re-analysis of the deposited data

Results flagged for a closer look

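BBC3 in SCaBER was flagged because the effect of the FOXA1 siRNA differed between backgrounds by its own test. The interaction of siFOXA1 and siZBED2 was −1.09 on the log2 scale (SE 0.30, adjusted p = 0.0426, edgeR), the FOXA1 siRNA effect being 1.88 on siControl, 0.62 on siZBED2-1 and 0.96 on siZBED2-2. The comparisons with the ZBED2 siRNAs share the siFOXA1 and siControl libraries, so they are not independent of each other. The adjusted p ranged up to 0.229 when single libraries were left out. Double knock-downs received 2 siRNAs and siFOXA1 cells 1, and the ZBED2 siRNA cannot be told apart from the addition of any further siRNA. FOXA1 itself had 20 and 28 counts in siControl and 4 and 6 with siFOXA1, 14 and 1 in siZBED2-1 and 0 and 1 with siFOXA1+siZBED2-1, and 25 and 20 in siZBED2-2 and 3 and 2 with siFOXA1+siZBED2-2. The level of FOXA1 in siZBED2-1 was thus below siControl in both libraries, a difference that was not called (log2 fold change −1.65, SE 1.19, adjusted p = 0.564), and its part in the interaction was not tested.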

How the results depend on the processing

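Over 195 alternative counts of called members 149 were within 1.5 times the main count and 46 were not. Many of the 195 belong to comparisons with a main count of 0, where an unchanged 0 was taken as within. Of 367 alternative fold changes of single members 72 lost the call in the same direction and 8 changed sign. The 367 include members not called with siFOXA1 against siControl, which had no call to lose, so the share of calls lost is higher than 72 of 367. All 8 sign changes lay among these uncalled members. With siFOXA1 against siControl in RT112 the count was 4, and 1 under limma, where only BAD was called. With siZBED2-1 in RT112 the count was 0, and 1 (BID) under DESeq2, with only the groups compared and with the replicate block. With siZBED2-1 in SCaBER DESeq2 called 1 (BCL2L1) in place of 0. On siZBED2-1 in RT112 the FOXA1 siRNA called 2, and 1 with no filter or only the groups compared and 0 under limma. On siZBED2-2 in RT112 it called 3, and 1 under limma. In SCaBER it called 2 on siZBED2-1 and 1 under limma (BAK1), and 2 on siZBED2-2, and 1 under limma and with only the groups compared. Adding siZBED2-2 to siFOXA1 in SCaBER called 1, and 3 under DESeq2 and 2 with the replicate block. The interaction in SCaBER called 1, and 0 under limma. RLE size factors moved no count. Causes were not tested.

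Without single libraries the counts ran from 0 to 2 (siFOXA1, RT112), 0 to 1 (siZBED2-1, RT112), 0 to 0 (siFOXA1 on siZBED2-1, RT112), 1 to 2 (on siZBED2-2, RT112), 0 to 2 (on siZBED2-1, SCaBER), 0 to 2 (on siZBED2-2, SCaBER), 0 to 0 (siZBED2-1 added to siFOXA1, SCaBER) and 0 to 1 (interaction, SCaBER). Such fits assume that the lone library of a group varies like the others.

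The sign changed for BAX with siFOXA1, in RT112 (0.25) to −0.051 under limma and between −0.33 and 0.82 without single libraries, and in SCaBER (0.01) to −0.18 under limma, −0.049 with the replicate block and between −0.58 and 0.41 without single libraries. For BCL2L11 in SCaBER (−0.05) it ran from −0.101 to 0.010 without single libraries. None of these was called.

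The replicate block pairs libraries by experiment batch. It kept the 4 calls with siFOXA1 in each line, added BAD on siZBED2-1 in RT112 (3 called) and BAK1 on siZBED2-1 in SCaBER (3 called), and beside the counts above changed no other call. On the TPM scale the median of all genes moved by −0.26 (siFOXA1, RT112) and −0.13 (SCaBER), so TPM fold changes are read relative to it. Fitting only the groups compared was not run for the interaction or between lines, and the block was run between lines only for the difference of responses. At these depths BBC3 and BAX in RT112 rest on under 50 counts per library, which limits what can be seen there.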
